A study of Mus musculus with 12 samples.

Results

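Transcripts of the histone genes were followed in mouse oocytes with and without Lsm14b, which encodes an RNA-binding protein of cytoplasmic ribonucleoprotein granules. The genes were chosen by symbol alone, as every linker (H1), H2A, H2B, H3, H4 and macroH2A gene named in the 2 deposited expression tables, with 3 pseudogenes left out. This gave 63 of the 23210 genes listed in either table. They comprised 8 linker genes, 45 replication-type core genes and 10 core variant genes. The table for mature oocytes listed 62 of them and the table for immature oocytes 15.

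The study holds 12 RNA libraries in 4 groups of 3 biological replicates. All mice were C57BL/6 at postnatal day 35 and carried floxed Lsm14b alleles (Lsm14bfl/fl). The oocytes called WT here had that genotype alone, whereas those called CKO (Lsm14bfl/fl-Gdf9-Cre) also carried a Cre recombinase driven by the Gdf9 promoter, which is active in growing oocytes. Oocytes of both genotypes were taken at the germinal vesicle (GV) stage, when the oocyte is arrested in meiotic prophase and still has an intact nucleus, and at metaphase II (MII), when it has matured and awaits fertilization. Each tube pooled 15 oocytes, so a library is a small pool of cells. In such bulk samples fewer transcripts per oocyte cannot be told apart from fewer oocytes that hold them.

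Core histones H2A, H2B, H3 and H4 wrap DNA into nucleosomes, and linker histones of the H1 family bind the DNA between them. Replication-type genes sit in clusters, are expressed chiefly in S phase and give mRNAs that usually end in a conserved stem-loop instead of a poly(A) tail. Variant genes such as those for H3.3, H2A.Z and macroH2A are expressed outside S phase, mostly as polyadenylated mRNAs. The growing oocyte stores histone mRNAs for the first cleavages of the embryo, and it carries its own linker histone, encoded by H1f8.

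The stem-loop is shown first because it is the feature by which histone mRNAs are processed and stored. It was searched on the sense strand of GENCODE M21 transcripts (GRCm38) as the letters GGNNNTTNTNAGNNCC with all 6 stem positions paired. Of the 63 genes, 62 were matched to that annotation, and 37 of these carried the stem-loop, against 0.251% of 21901 protein-coding genes. It was found in 4 of 8 linker genes, 32 of 44 replication-type genes and 1 of 10 variant genes, H2ax. These counts hold for the transcripts as annotated. Some transcripts without a match are short, with 312 bases in H4c12, 381 in H2bc13 and 411 in H3c10. They may end before the stem-loop, so such genes cannot be said to lack it. The most frequent form was shared by 22 members. The stem-loops below are written as DNA, 5′ to 3′, with the 16 bases of the stem-loop in capitals and 5 bases of transcript on either side. They belong to members that the GV table, the MII test or the level of the transcript brings up in the results.
H1f2: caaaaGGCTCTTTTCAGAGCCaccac
H1f3: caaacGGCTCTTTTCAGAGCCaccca
H1f4: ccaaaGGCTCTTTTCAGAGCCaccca
H2ac6: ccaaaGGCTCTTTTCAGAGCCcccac
H2aw: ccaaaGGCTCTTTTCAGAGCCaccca
H2ax: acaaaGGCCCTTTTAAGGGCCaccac
H3c14: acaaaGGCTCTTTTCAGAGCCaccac
H3c15: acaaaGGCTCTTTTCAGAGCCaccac
H4c3: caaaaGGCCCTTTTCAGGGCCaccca

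The sequence printed for H3c14 is the same as that for H3c15, and the H2ax form was found in no other member. In H2ax the annotated transcript ran on for 822 bases after the stem-loop and in H2ac6 for 2010 bases, so both annotated transcripts extend well beyond a histone 3′ end. H1f0, H1f1, H1f8, H2aj, H3f3a, H3f3b, H2az1 and H2az2 had no match in their transcripts. Many of the genes are near-identical copies of each other. In 23 members over 50% of all 50-base stretches of the transcript also occurred in another gene. The share reached 100% for H3c14 and 63.5% for H3c15, while it was 0% for H1f0 and H1f1, 2.19% for H2aj and 6.14% for H2ax. How reads that fit several copies were counted is not given in the sources used here, so values of single replication-type genes are uncertain where copies could share reads.

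Promoter windows are shown for 3 genes on which the results turn, in whose annotated transcripts the stem-loop was not found. They are H2aj, the member that passed the test at MII, H1f8, the most abundant member, and H1f1, which was low in CKO oocytes at both stages. The annotated transcript of H1f1, at 741 bases, may also end before a stem-loop. Each window is the 150 bases before the annotated start in RefSeq (GRCm38.p6), with the CCAAT box, read on either strand as CCAAT or ATTGG, in capitals.
H2aj (chr6:136808098-136808247, + strand): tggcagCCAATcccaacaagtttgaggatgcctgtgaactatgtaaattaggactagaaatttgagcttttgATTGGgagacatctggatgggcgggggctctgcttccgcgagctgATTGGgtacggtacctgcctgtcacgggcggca
H1f8 (chr6:115944781-115944930, + strand): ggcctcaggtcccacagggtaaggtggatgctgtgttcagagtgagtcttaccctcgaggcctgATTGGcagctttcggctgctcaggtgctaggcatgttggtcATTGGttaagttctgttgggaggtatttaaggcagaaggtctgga
H1f1 (chr13:23763518-23763667, + strand): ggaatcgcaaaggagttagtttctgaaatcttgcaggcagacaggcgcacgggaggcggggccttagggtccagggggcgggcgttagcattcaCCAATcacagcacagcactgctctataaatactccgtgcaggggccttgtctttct

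These windows held the box 3, 2 and 1 times. It occurred in 44 of the 56 members with a window (78.6%) and in 24.5% of 32851 windows of the same length over all genes. By class, 6 of 8 linker, 32 of 39 replication-type and 6 of 9 variant genes held it. Members were counted by gene and the background by window. The windows of some neighbouring genes, such as H2ac7 and H2bc7, overlap and share boxes, so the members are not separate observations. A match of 5 letters is a description of the window and no evidence of binding.

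The targeted gene matched the labels in every library. At MII, Lsm14b stood at 10868, 10643 and 11641 normalized counts (read counts that the authors scaled between the libraries of a table) in WT and at 822, 982 and 920.1 in CKO. The difference was -3.61 on the log2 scale (SE 0.27, adjusted p = 0.00265, limma). At GV it stood at 30132, 18816 and 19845 in WT and at 1436, 1601 and 1273 in CKO, and the authors' deposited table gives a log2 fold change of -4.00 (SE 0.21, adjusted p = 4.60e-79).

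As recovered from these values, the MII libraries held 88494525 to 124872889 reads in WT and 23077585 to 40530314 in CKO, so a single read was worth 0.513 to 0.598 normalized counts in WT and 1.38 to 2.53 in CKO. The GV table lists selected genes only, and its depth is therefore unknown. All 14 oocyte markers were measured, with summed levels of 1062952 to 1169778 in WT and 1209452 to 1428372 in CKO at MII. Of 20 cumulus and granulosa markers 15 were listed, with sums of 2945 to 5246 in WT and 3464 to 4442 in CKO, and of 16 theca, stroma, endothelium and blood markers 9, with sums of 4878 to 6216 and 4142 to 4863. Foxl2 and Amhr2 of the former list and Col1a1, Cdh5 and Hbb-bs of the latter were not in the table, and no listed marker was at 0 in every library. The sums of 12 proliferation markers were 65562 to 81949 in WT and 52899 to 60260 in CKO. The proliferation sums did not overlap between the genotypes and were lower in CKO. Those of the theca and blood list were lower in CKO too, but with next to no gap (4878 in WT replicate 3 against 4863 in CKO replicate 2). Those of the oocyte list did not overlap and were higher in CKO. The part of these lists in the histone values was not tested. The GV table listed 6 genes of the theca and blood list, 1 higher and 5 lower in CKO, 2 proliferation markers, both higher, and none of the oocyte or granulosa markers. WT replicate 3 stood apart: its rank correlations with the other libraries were 0.847 to 0.877, those among the others 0.899 to 0.940, and the locus CT010467.1 accounted for 24.3% of its reads and for 6.56% to 11.8% in the other libraries. Values without it are therefore given beside the members on which the results turn.

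The histone transcripts covered a wide range of levels in mature oocytes. Per kilobase of annotated exon, H1f8 led with a WT mean of 155089 ± 124778 normalized counts and a CKO mean of 51010 ± 8059 (SD, n = 3). H3f3b followed with 7200 ± 4416 in WT, then H3f3a with 1658 ± 952. The next in WT were H3c15 (1102 ± 337 per kilobase), H3c14 (925 ± 292), H1f0 (837 ± 203), H1f1 (786 ± 571) and H2ax (654 ± 365), whose neighbours in this order differed by less than their spread. H1f8 alone made up 65.3% to 86.1% of all histone counts in a library. H3f3a and H3f3b, which encode the same H3.3 protein, made up 91.3% to 97.2% of the variant counts. At the other end, 26 of the 62 members had a read in every MII library, and 5 had fewer than 5 reads in all 6 together.

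Summed by class, the linker transcripts came to 87567, 116558 and 361840 normalized counts in the WT libraries and to 61167, 53043 and 72491 in CKO. Every CKO library was below every WT library, and WT replicate 3 was far above the other WT libraries. The log2 ratio of the group means was -1.60, and -0.71 without WT replicate 3. Without H1f8 the other 7 linker genes summed to 1977, 1848 and 3355 in WT and to 792, 985 and 1136 in CKO, a log2 ratio of -1.30, or -0.98 without WT replicate 3. Of the means of these 7 genes, 2393 in WT and 971 in CKO, H1f0 gave 1720 and 756 and H1f1 583 and 76.1. H1f2 and H1f6 had higher means in CKO. The separation of the linker sums between genotypes thus did not rest on H1f8 alone, but beyond it rested mainly on H1f0 and H1f1.

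The replication-type genes summed to 2637, 3829 and 5185 normalized counts in WT and to 3212, 2588 and 2647 in CKO, so these groups overlapped. Their log2 ratio was -0.46, and -0.20 without WT replicate 3. For the variant genes the sums were 18215, 20484 and 49237 in WT and 19519, 17105 and 34190 in CKO. These overlapped as well, and the log2 ratio turned from -0.31 to 0.29 when WT replicate 3 was left out. With the H3.3 genes set aside, the other 8 variant genes gave 1432, 1776 and 3016 in WT against 801, 727 and 966 in CKO, without overlap, at a log2 ratio of -1.32 (-0.95 without WT replicate 3). Of their means, 2074 in WT and 831 in CKO, H2ax gave 906 and 187 and H2aj 581 and 65.6. Macroh2a1, Macroh2a2 and H3f4 had higher means in CKO. No test was run on these sums, and those without H1f8 or without the H3.3 genes were not among the sums planned.

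**Figure D1:**
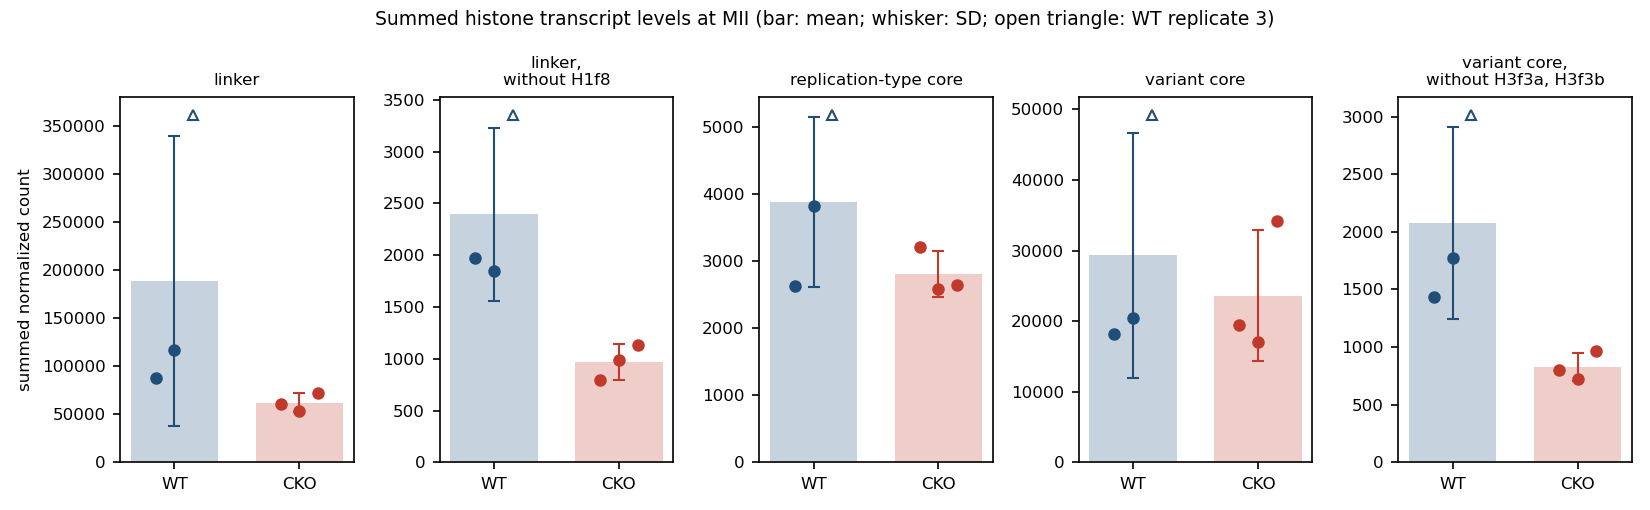
Summed normalized counts of the linker genes (with and without H1f8), replication-type genes and variant genes (with and without the H3.3 genes) in each MII library on linear axes from 0, with 1 point per library, an open triangle for WT replicate 3, bars at the group means and whiskers of 1 SD. The linker sums of the 3 CKO libraries (53043 to 72491) lie below all WT sums, while the replication-type and variant sums overlap between genotypes.

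Across all genes, limma was fitted to log2(normalized count + 1) at MII for the 20388 genes with a mean of at least 1, and 308 of them (1.51%) passed an adjusted p of 0.05, 106 higher and 202 lower in CKO. Of the 62 members listed, 53 were tested, and 1 of them fell, H2aj, while 0.991% of all genes tested fell. None was higher, against 0.52% of all genes tested, and at an unadjusted limma p under 0.05 there were 1 higher and 9 lower, where 6.70% and 9.28% of all genes stood. The median log2 difference was -0.34 over the tested members and -0.11 over all genes tested. By class it was -1.17 for 7 linker genes, 3 of them with a positive difference, -0.51 for 36 replication-type genes and -0.21 for 10 variant genes. Without WT replicate 3 it was -0.71 for the linker genes, -0.73 for 34 replication-type genes and 0.26 for the variant genes. These are medians over members that passed the filter on low values. Between the genotypes, 2 of the 53 tested members were higher and 13 lower in CKO without overlap of any library, against 10.4% and 12.0% of all genes tested. Over all 6 libraries the share of tested members in the lower group was thus above that of all genes. The members in it include the near-identical pair H3c14 and H3c15, and H2ac6, H4c3 and H4f16, which had at most 14 reads in any CKO library. With WT replicate 3 left out, 5 of the 53 were higher and 14 lower without overlap, against 15.6% and 21.8% of all genes tested. The share in the lower group was then near that of all genes.

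**Figure D2:**
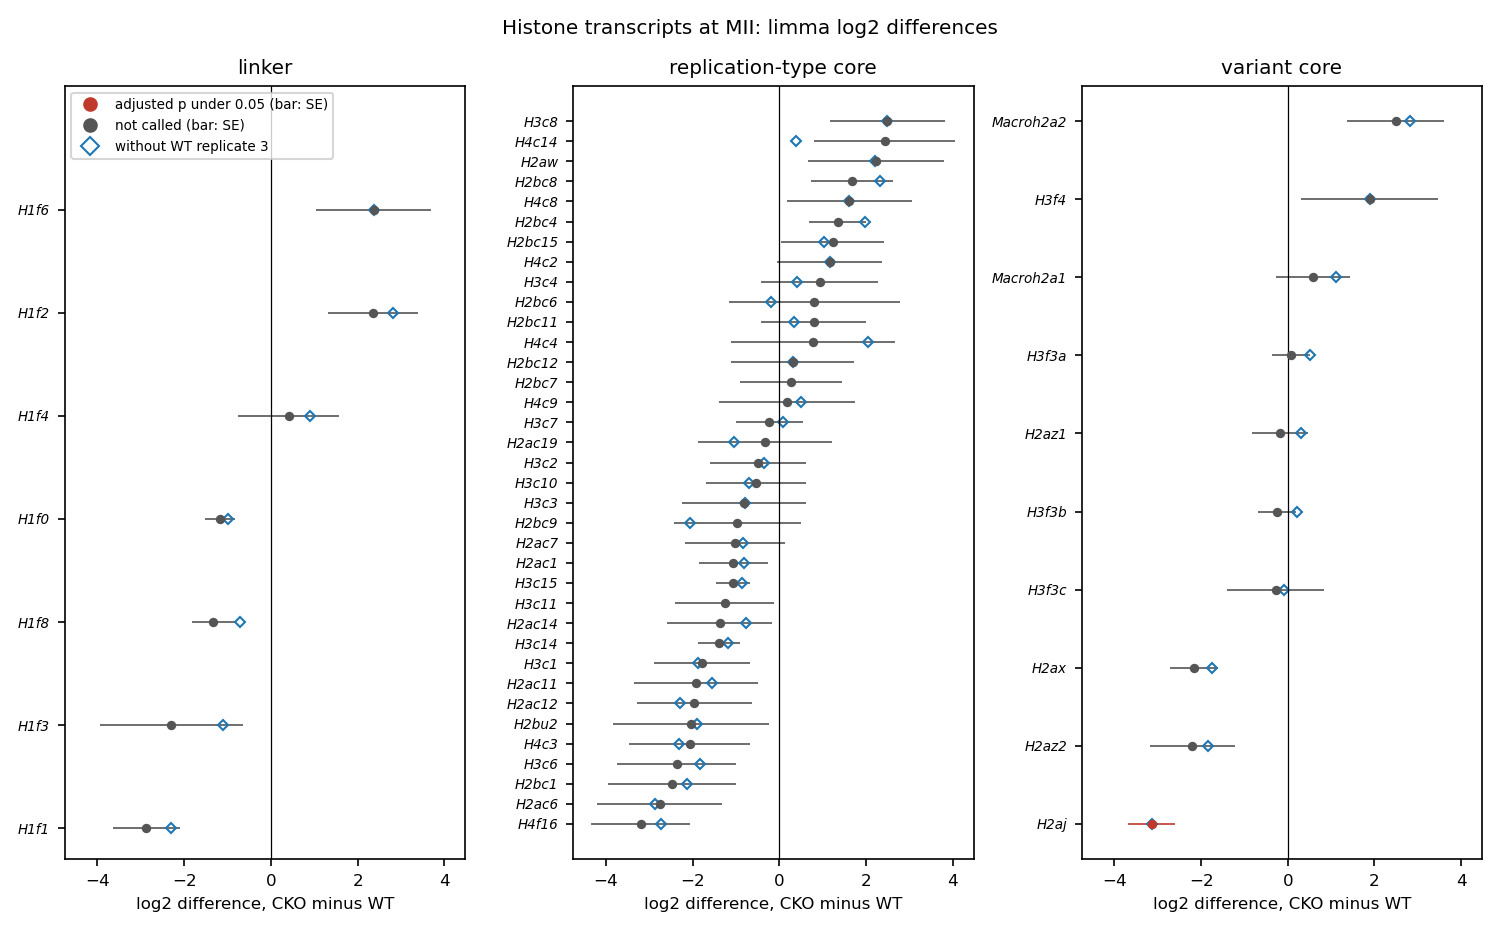
Log2 difference between CKO and WT at MII from limma for each tested histone gene, by class, with error bars of 1 SE and open diamonds for the value without WT replicate 3. H2aj at -3.14 is the gene that passed the adjusted threshold, and among the variant genes the diamonds of H2az1 and H3f3b lie on the other side of 0 from their points.

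With WT replicate 3 left out, limma called 988 of 20240 genes (4.88%), 2.16% higher and 2.72% lower, and again 1 member of 51 tested, H2aj, which was lower. At an unadjusted limma p under 0.05 there were 4 members higher and 8 lower, against 8.84% and 12.9% of genes. In the authors' deposited table, 1851 of 16042 genes with an adjusted p (11.5%) pass 0.05, and so do 6 of the 35 members that have one, all lower in CKO, as are 6.94% of the genes: H2aj, H2ax, H1f1, H1f0, H3c15 and H1f8. None of the 35 is higher there, where 4.6% of the genes are. The members called in these fits and that table were all lower in CKO. Limma with array weights called 10 members, 7 lower and 3 higher, the latter being H1f2, H2bc4 and Macroh2a2. With those weights 3190 of 20388 genes were called, 1893 lower and 1297 higher, so calls were far more frequent over all genes as well.

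H2aj encodes H2A.J, a replication-independent variant of H2A. Its level was 525.7, 624 and 593.8 normalized counts in the WT libraries and 52.3, 78.5 and 66.1 in the CKO libraries, which rest on 892 to 1158 and 31 to 48 reads. WT replicate 3 lay between the other WT libraries for this gene, and the groups were far apart. The means were 581 ± 50.3 in WT and 65.6 ± 13.1 in CKO (SD, n = 3), 8.85-fold lower in CKO, and the log2 difference was -3.14 (SE 0.55, adjusted p = 0.0279, limma). Without WT replicate 3 it was -3.13 (adjusted p = 0.0208). The call was lost when any of the other 5 libraries was left out, with adjusted p between 0.104 and 0.178 in limma at log2 differences of -3.28 to -2.99, under limma-voom on the reads (0.0772) and with a replicate block (0.587). The authors' deposited table gives -3.16 (adjusted p = 1.26e-13). H2aj is not among the genes selected in the GV table.

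H1f8 encodes the oocyte-specific linker histone, which replaces somatic H1 in the oocyte and early embryo. It stood at 85590, 114710 and 358485 normalized counts in WT and at 60375, 52058 and 71355 in CKO. Every CKO library was below every WT library, but the WT mean of 186262 ± 149859 (SD, n = 3) was carried by replicate 3. The WT mean was 3.04 times the CKO mean, and 1.63 times without that library. The log2 difference was -1.32 (SE 0.50, adjusted p = 0.233, limma), and -0.71 without WT replicate 3 (adjusted p = 0.161), so it did not pass the test. The authors' deposited table gives -1.60 (adjusted p = 0.0416).

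H1f0 encodes H1.0, a replication-independent linker histone found mainly in non-dividing cells. Its counts were 1699, 1314 and 2148 in WT and 653, 724 and 890 in CKO, without overlap. The log2 difference was -1.17 (SE 0.35, adjusted p = 0.131, limma), and -1.0 (adjusted p = 0.0882) without WT replicate 3. H1f1, a replication-type linker gene that encodes H1.1, stood at 245, 446 and 1057 in WT and at 33.0, 129 and 66.1 in CKO. All CKO libraries were again below all WT libraries, and the WT values themselves spread over a wide range. The WT mean was 7.66 times the CKO mean, or 4.54 times without WT replicate 3, and the log2 difference of -2.87 (SE 0.76) had an adjusted p of 0.0996 in limma. The authors' deposited table gives H1f0 an adjusted p of 0.00722 and H1f1 one of 0.00183.

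H1f2, a replication-type linker gene with the stem-loop, lay the other way. It had 11.8, 8.97 and 27.7 normalized counts in WT and 60.6, 65.8 and 118 in CKO, from 15 to 54 reads in WT and 26 to 86 in CKO. The groups did not overlap, and the CKO mean was 5.05 times the WT mean (7.86 times without WT replicate 3). The log2 difference of 2.36 (SE 1.04) did not pass the test (adjusted p = 0.306, limma). H1f3 had 24, 0 and 90 reads in WT and 0, 2 and 0 in CKO, and H1f4 had 12, 132 and 137 in WT and 29, 16 and 45 in CKO. For both of these the groups overlapped.

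Among the variants, H2ax encodes H2A.X, the form of H2A that is phosphorylated at DNA breaks. At MII it stood at 460, 802 and 1455 normalized counts in WT and at 125, 195 and 240 in CKO. The lowest WT library was above the highest CKO library, and the difference of -2.17 (SE 0.55) had an adjusted p of 0.0863 in limma. Without WT replicate 3 it was -1.75 (adjusted p = 0.0779), and the authors' deposited table gives -2.28 (adjusted p = 0.00107). H2az2, which encodes the H2A.Z.2 form of H2A.Z, had 93.7, 144 and 254 in WT and 9.64, 60.8 and 53.7 in CKO, also without overlap (log2 difference -2.20, SE 0.98, adjusted p = 0.307, limma). H2az1, which encodes H2A.Z.1, had 216, 118 and 434 in WT and 184, 149 and 274 in CKO. Its groups overlapped, and its log2 difference turned from -0.18 to 0.30 without WT replicate 3.

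The genes for macroH2A, a large variant with a macro domain that is linked to silent chromatin, tended to higher values in CKO without passing the test. Macroh2a2 had 27.7, 4.79 and 24.6 normalized counts in WT and 102, 162 and 44.1 in CKO, without overlap (log2 difference 2.49, SE 1.12, adjusted p = 0.315, limma). For Macroh2a1 the values were 76.6, 68.2 and 223 in WT and 262, 55.7 and 269 in CKO, where CKO replicate 3 lay below all others. Its log2 difference was 0.58 (SE 0.86), or 1.12 without WT replicate 3.

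H3f3a and H3f3b encode H3.3, the H3 variant deposited throughout the cell cycle. H3f3a had 3885, 3883 and 9660 normalized counts in WT and 4724, 3995 and 8915 in CKO, and H3f3b had 12898, 14825 and 36561 in WT and 13994, 12383 and 24310 in CKO. In both genes WT replicate 3 and CKO replicate 4 were the high libraries, and the groups overlapped. Without WT replicate 3 the H3f3a groups no longer did, and its CKO mean was 1.51 times the WT mean instead of 1.01 times. The log2 differences were 0.07 (SE 0.44) and -0.24 (SE 0.43), and 0.51 (SE 0.34) and 0.22 (SE 0.31) without WT replicate 3. The other variant genes were low: H3f3c had 31.8, 14.4 and 31.8 normalized counts in WT and 16.5, 25.3 and 19.3 in CKO, which overlapped, and H3f4 had 36 reads in CKO replicate 2 and none elsewhere.

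**Figure D3:**
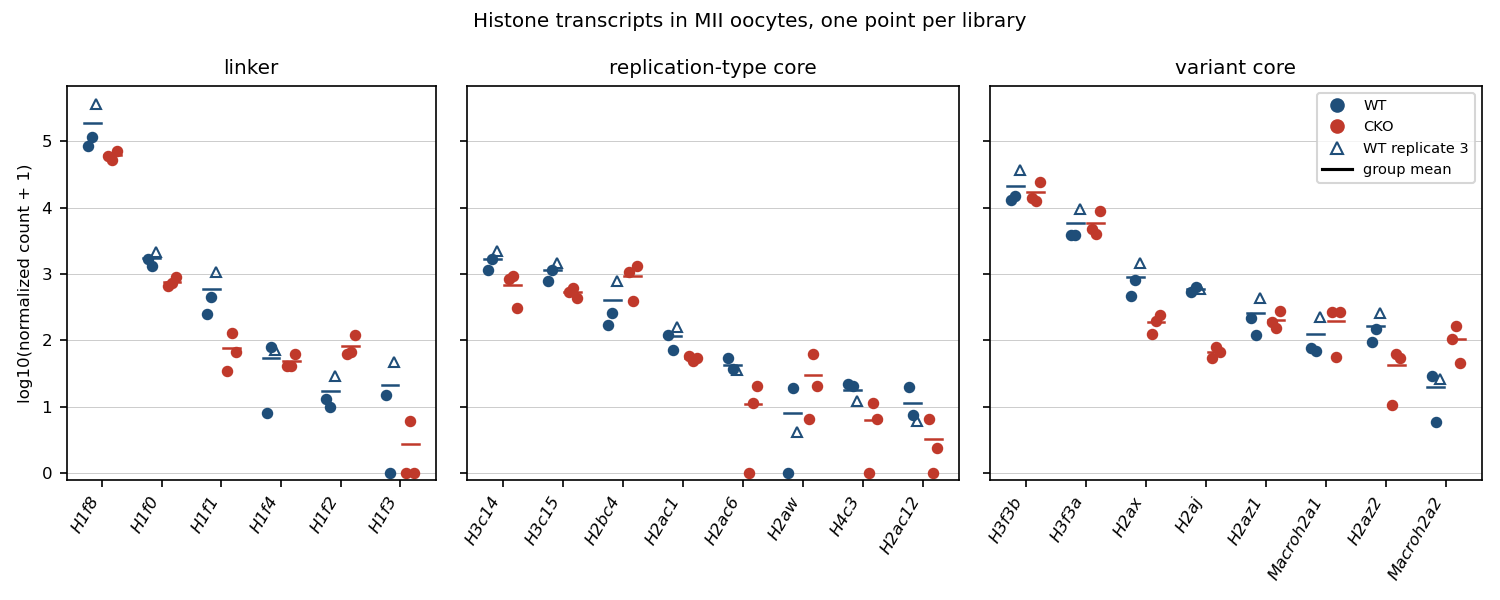
Level of each histone gene named in the text at MII, as log10(normalized count + 1), with 1 point per library, WT in blue and CKO in red, WT replicate 3 as an open triangle, and bars at the group means. H2aj shows the widest gap between tight groups (525.7 to 624 against 52.3 to 78.5), and the H3.3 genes overlap.

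Of the replication-type genes, the most abundant were H3c14, H3c15 and H2bc4. H3c14 and H3c15 lie in the same cluster and encode H3.2, and every 50-base stretch of H3c14 also occurs in another gene, so its reads cannot be told from those of its copies. H3c14 had 1148, 1699 and 2215 normalized counts in WT and 829, 924 and 307 in CKO, and H3c15 had 771, 1142 and 1458 in WT and 538, 605 and 428 in CKO. In both genes every CKO library was below every WT library. The log2 differences were -1.40 (SE 0.49, adjusted p = 0.195) and -1.07 (SE 0.39, adjusted p = 0.223) in limma, so neither passed. The authors' deposited table gives them adjusted p-values of 0.0867 and 0.0400.

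H2bc4, an H2B gene, differed from these in direction. It stood at 166, 260 and 770 normalized counts in WT and at 1085, 392.4 and 1299 in CKO, where WT replicate 3 overlapped the CKO libraries. The CKO mean was 2.32 times the WT mean, and 4.34 times without WT replicate 3, when the groups no longer overlapped. The log2 difference was 1.35 (SE 0.66, adjusted p = 0.351, limma), and 1.98 without that library (adjusted p = 0.0867). H2bc8, an H2B gene in which the stem-loop was found, unlike H2bc4, had 23.0, 33.5 and 107 normalized counts in WT and 248, 58.2 and 199.7 in CKO. The rule for naming members did not cover H2bc8, which was picked out with its values known. The CKO mean of H2bc8 was 3.09 times the WT mean with overlapping groups, and 5.97 times without WT replicate 3, when they did not overlap (log2 difference 1.68 and 2.32, adjusted p = 0.410 and 0.163, limma).

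H2ac1 encodes TH2A, an H2A form of germ cells and early embryos. It had 121, 71.2 and 157 normalized counts in WT and 56.4, 48.1 and 53.7 in CKO, without overlap (log2 difference -1.06, SE 0.79, adjusted p = 0.555, limma). H2ac6 had 52.5, 35.9 and 34.9 in WT and 0, 10.1 and 19.3 in CKO, and H4c3 had 20.6, 19.1 and 11.3 in WT and 0, 10.1 and 5.51 in CKO. Both had lower values in every CKO library, on at most 14 reads in any of them, and limma gave adjusted p-values of 0.376 and 0.507. H2ac12 had 18.9, 6.58 and 5.13 normalized counts in WT and 5.51, 0 and 1.38 in CKO, and its groups overlapped unless WT replicate 3 was left out (log2 difference -1.97, SE 1.33, adjusted p = 0.505, limma). H2aw had 0, 17.9 and 3.08 in WT and 5.51, 60.8 and 19.3 in CKO, scattered within both groups.

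The remaining replication-type genes were sparse. H3c1 had 108, 90 and 92 reads in the WT libraries and 4, 10 and 17 in CKO, and H4f16 had 9, 10 and 32 in WT and none in any CKO library. With 3 reads over the CKO group as the floor, H4f16 was at least 5.68-fold lower in CKO, or at least 3.48-fold without WT replicate 3. H3c1 and H4f16 were singled out after their values were seen, and neither passed the test. In normalized counts H3c7 (53.6, 133 and 166 in WT, 124, 60.8 and 97.8 in CKO), H3c2 (17.7, 44.3 and 36.9 in WT, 35.8, 12.7 and 22.0 in CKO) and H2bc11 (20.6, 26.9 and 8.72 in WT, 31.7, 68.4 and 12.4 in CKO) overlapped between the genotypes. H4c14 had 50.7, 98.1 and 0 in WT and 109, 101 and 70.2 in CKO, and its log2 difference went from 2.43 to 0.38 without WT replicate 3, the library at 0. Also overlapping were H2bc1 (13, 16.2 and 30.8 in WT, 1.38, 17.7 and 0 in CKO), H2bc12, H2bc15, H2bu2, H3c3, H3c4, H3c6, H3c10, H2ac7, H2ac11, H2ac14 and H2ac19.

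Many of these genes had no read in several libraries, and some had reads in 1 or 2 libraries alone. H4c8 had 11 and H4c2 had 4 in CKO replicate 3 alone, and H3c8 had 10 and 8 in CKO replicates 2 and 4. H2bc6 had 105 reads in WT replicate 2 and 0 in the other WT libraries, and 0, 8 and 11 in the CKO libraries. H4c4, H4c9, H2bc7, H2bc9 and H3c11 likewise had no read in at least 1 library of each genotype. In all, 7 members had no read in any CKO library and 6 had none in any WT library. For H2ac10, H2bc3, H2bc13 and H4c12, all at 0 in CKO, the WT mean was itself below what 3 reads over the CKO group are worth, so a difference was not detectable at this depth. The linker gene H1f10 had 11 reads, all in WT replicate 3, and the testis linker gene H1f6 had 4 and 8 in CKO replicates 2 and 3. The 9 members that were not tested because of their low mean were H1f10, H2ac4, H2ac8, H2ac10, H2ac13, H2ac18, H2bc3, H2bc13 and H4c12.

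Grouped by the stem-loop as found in the annotation, 33 tested members with it had a median log2 difference of -0.23 and none was called. The 19 without a match had a median of -0.54 with H2aj called. The latter include H2ac1, H2bc15 and H3c10, whose annotated transcripts of 390, 381 and 411 bases may end before a stem-loop. The grouping therefore does not set genes with the stem-loop against genes known to lack it. How the RNA was primed for the libraries is not given in the sources used here, and its part in the level of stem-loop transcripts was not tested.

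At the GV stage the table holds only genes that passed the authors' own selection, an unadjusted p under 0.05 with a more than 2-fold change, so every gene in it differs by construction and a gene missing from it was simply not selected. The selection took 3475 of 21462 genes tested (16.2%), the latter number as implied by the deposited adjusted p-values. It held 15 histone genes, 6 higher and 9 lower in CKO. Of these, 11 have an adjusted p under 0.05 in the authors' deposited table, 4 higher and 7 lower. That criterion together with the 2-fold change held for 12.9% of all genes tested (4.96% higher and 7.89% lower) and for 2758 of the 3475 selected ones. All 15 members were without overlap between the genotypes, as were 84.0% of the genes in the table. These shares are near those of the selected genes in general, and no further test was made on selected values.

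H2ax was the most abundant histone gene in the GV table and fell with the smallest p. It stood at 10253, 13098 and 11060 normalized counts in WT and at 2750, 2616 and 3738 in CKO, and all WT libraries were well above all CKO libraries. The means were 11470 ± 1466 in WT and 3035 ± 613 in CKO (SD, n = 3), and the authors' deposited table gives a log2 fold change of -1.92 (SE 0.19, adjusted p = 3.09e-22).

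The H2A.Z genes moved in opposite directions in the GV table. H2az1 had 767, 844 and 645 normalized counts in WT and 1710, 1742 and 1742 in CKO, and its log2 fold change in the authors' deposited table is 1.2 (adjusted p = 1.50e-08). H2az2 had 616, 1306 and 722 in WT and 324, 325 and 239 in CKO, with -1.57 (adjusted p = 0.000292) in the authors' deposited table. The CKO libraries were close to each other for both genes, and the groups stood apart.

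The macroH2A genes both rose. Macroh2a1 had 434, 225 and 476 normalized counts in WT and 900, 808 and 937 in CKO, and Macroh2a2 had 264, 334 and 271 in WT and 694, 520 and 726 in CKO. The authors' deposited table gives log2 fold changes of 1.22 (adjusted p = 0.00318) and 1.16 (adjusted p = 0.000835).

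Of the linker genes in the table, H1f1 fell from 625, 360 and 442 normalized counts in WT to 166, 107 and 201 in CKO (log2 fold change -1.59, adjusted p = 0.00127, in the authors' deposited table). H1f4 rose from 8.72, 77.8 and 23.6 to 154, 99.1 and 284 (2.30, adjusted p = 0.0420, in the authors' deposited table). Its log2 ratio of means after adding 1 was 2.26, and 3.39 without WT replicate 2. H1f3 was called lower there (-6.18, adjusted p = 0.0165) on 135, 8 and 3 reads in WT and 0, 0 and 2 in CKO, and most of its WT reads came from WT replicate 1. With that library left out, its log2 ratio of means after adding 1 went from -4.79 to -2.35. H1f2 had 314, 165 and 52.2 in WT and 395, 558 and 406 in CKO, and the authors' deposited table gives it an adjusted p of 0.0926. Its log2 ratio of means was 1.35, and 2.05 without WT replicate 1. H1f8 and H1f0 were not selected at this stage.

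The replication-type genes in the GV table were mostly lower in CKO. H2ac1 had 370, 445 and 402 normalized counts in WT and 25.6, 185 and 98.3 in CKO, H2ac6 had 116, 151 and 161 in WT and 23.9, 17 and 51.5 in CKO, and H4c3 had 61.0, 105 and 199 in WT and 11.9, 7.74 and 44.8 in CKO. All of these fell, with log2 fold changes of -1.98, -2.22 and -2.50 and adjusted p-values of 0.0146, 0.00756 and 0.0332 in the authors' deposited table. On the same log2 ratio of means, H2ac1 went from -1.97 to -2.69 without CKO replicate 2 and H4c3 from -2.45 to -3.50 without CKO replicate 4. H2ac12 had 35, 35 and 21 reads in WT and 9, 10 and 10 in CKO, with an adjusted p of 0.139 in the authors' deposited table. H2bc21, the member listed at this stage alone, had 27, 1 and 16 reads in WT and none in CKO. With a floor of 3 reads over the group this is at least 17.5-fold lower, but its adjusted p in the authors' deposited table is 0.0786. H2aw, an H2A gene outside the large clusters, had 133, 461 and 365 normalized counts in WT and 555, 663 and 851 in CKO (adjusted p = 0.0736 in the authors' deposited table), the single replication-type member with higher values in CKO.

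**Figure D4:**
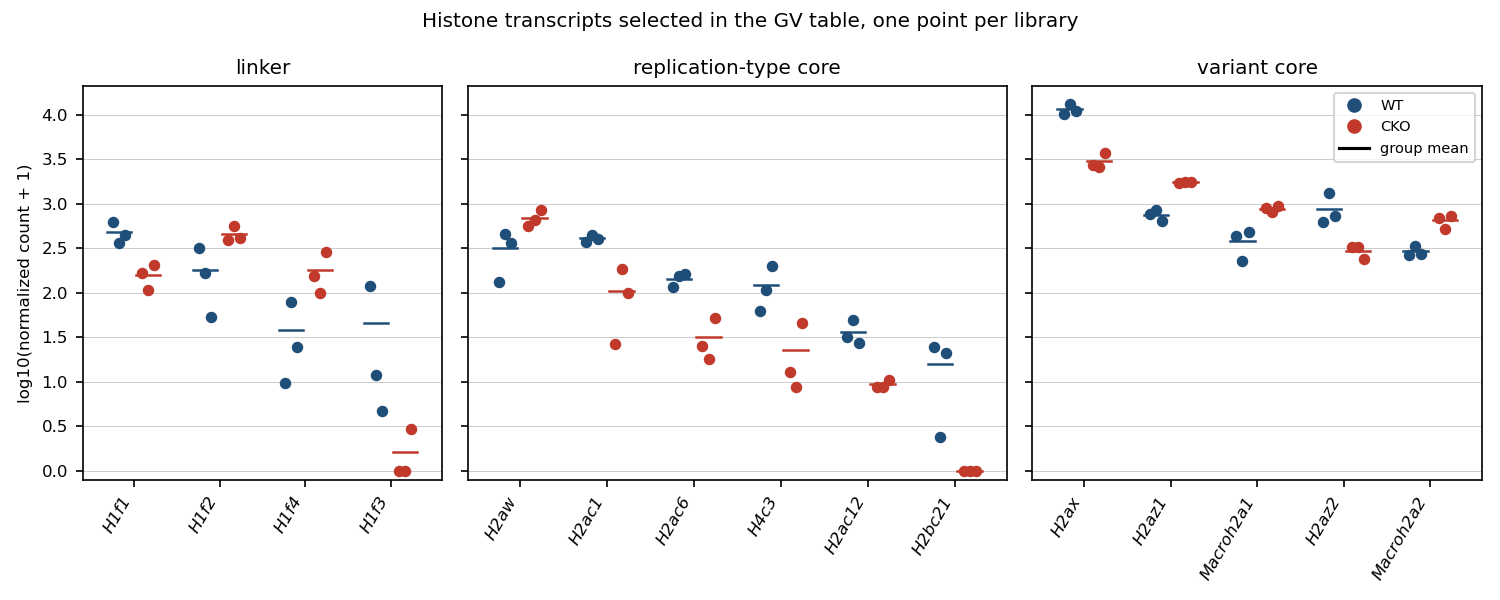
Level of the 15 histone genes selected in the GV table, as log10(normalized count + 1), by class, with 1 point per library, WT in blue and CKO in red, and bars at the group means. Groups do not overlap for any gene, which the selection favours; H2ax is the highest and H2bc21 has no CKO read.

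Set side by side, the stages drew on separate libraries. In the authors' deposited tables, 12 of the 14 members listed at both stages have the same sign at MII as at GV (85.7%), and so do 2680 of 3066 genes of the GV table that are listed at MII (87.4%), so the members did not stand out in this respect. For H2ax the log2 fold changes in those tables were -1.92 at GV and -2.28 at MII, for H1f1 -1.59 and -2.95, and for Macroh2a2 1.16 and 2.43. The exceptions were H2az1, with 1.2 at GV and -0.34 at MII, and H1f4, with 2.30 and -0.13. Both had overlapping groups at MII. In limma the H1f4 difference at MII was 0.41 (SE 1.17), with the sign it had at GV, and that of H2az1 was -0.18, or 0.30 without WT replicate 3. A test of the difference between stages could not be made, because the GV table holds selected genes and was normalized separately.

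**Figure D5:**
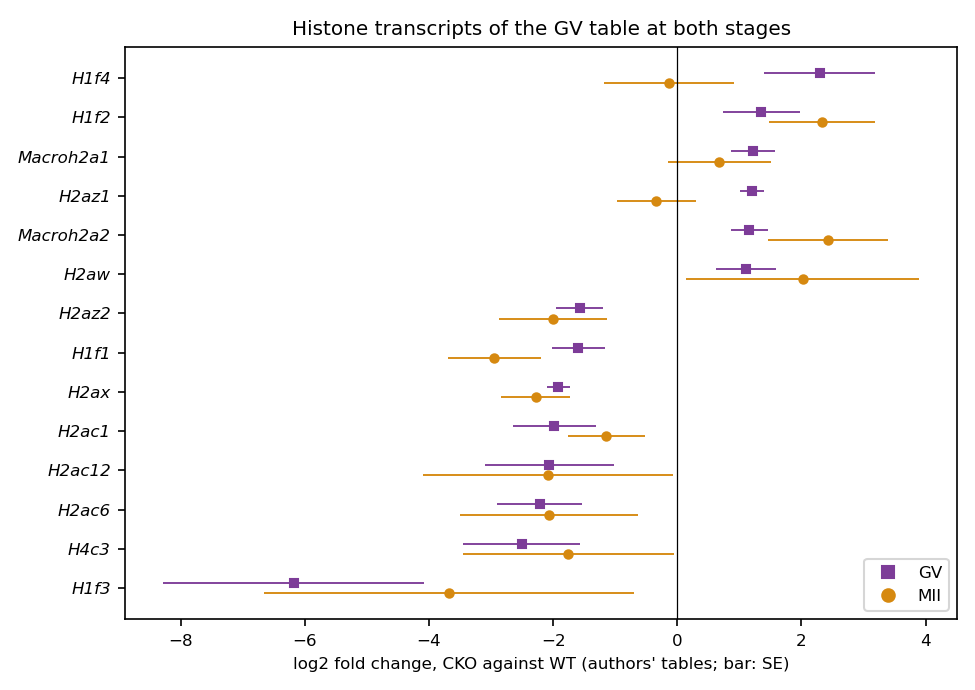
Log2 fold change of CKO over WT at the GV and MII stages from the authors' deposited tables for the 14 histone genes listed in both, with error bars of 1 SE. H2az1 (1.2 and -0.34) and H1f4 (2.30 and -0.13) are the genes whose sign differs between stages.

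The factors that act on histone mRNAs and proteins were looked at as well. Of 22 genes for histone mRNA transcription and 3′ end processing, 2 rose at MII and none fell at the adjusted threshold in limma (0.52% and 0.991% of all genes tested), with a median log2 difference of 0.18 against -0.11 over all genes tested. Srrt, which encodes the cap-complex partner ARS2, stood at 1239, 1774 and 1339 normalized counts in WT and at 4798, 5484 and 3888 in CKO (log2 difference 1.71, SE 0.30, adjusted p = 0.0294, limma). Cstf2, which encodes a cleavage stimulation factor, stood at 1033, 1193 and 945 in WT and at 2496, 3360 and 3464 in CKO (1.55, SE 0.31, adjusted p = 0.0429, limma). The groups were well apart in both genes, and both are also in the GV table, with log2 fold changes of 1.83 and 1.13 in the authors' deposited table (adjusted p = 1.90e-16 and 1.52e-07).

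Without WT replicate 3, 4 genes of this list were called higher by limma and none lower, where 2.16% and 2.72% of all genes were, the others being Ncbp1 (1.59, adjusted p = 0.0427), a subunit of the nuclear cap-binding complex, and Fip1l1 (1.03, adjusted p = 0.0422), a polyadenylation factor. The authors' deposited table also calls Npat, the activator of replication-type histone genes, with 1.32 (adjusted p = 0.00539). Npat had 2920, 2396 and 1819 normalized counts in WT and 4191, 7694 and 5930 in CKO, without overlap, and an adjusted p of 0.0871 in limma.

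Of 35 histone chaperones and deposition factors, 1 rose and none fell at MII in limma (0.52% and 0.991% of all genes tested), with a median log2 difference of -0.01. It was Dnajc9, which encodes a chaperone that binds H3 and H4, with 721, 542 and 1269 normalized counts in WT and 3571, 2886 and 5481 in CKO (log2 difference 2.28, SE 0.41, adjusted p = 0.0298, limma). Every CKO library was above every WT library. Without WT replicate 3, limma called 3 of the 35 higher and 1 lower (2.16% and 2.72% of all genes). The higher ones were Dnajc9, Nasp (1.39, adjusted p = 0.0484, limma), which encodes a chaperone for H3, H4 and linker histones, and Nap1l4 (1.01, adjusted p = 0.0394, limma), which encodes a nucleosome assembly protein, and over all 6 libraries the latter pair had adjusted p-values of 0.440 and 0.309. The lower one was Chaf1a, the large subunit of the CAF-1 complex that deposits H3 and H4 behind the replication fork. It had 8403, 8520 and 13759 in WT and 3865, 4975 and 4665 in CKO, with -1.15 and an adjusted p of 0.0923 in limma over all 6 libraries and -0.92 and 0.0499 without WT replicate 3.

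The calls for Srrt, Cstf2 and Dnajc9 were lost, like that of H2aj, when a library other than WT replicate 3 was left out: no gene of either list was then called. At GV, Daxx, which encodes an H3.3 chaperone, rose from 3130, 3289 and 3146 normalized counts to 7393, 6134 and 7129 (log2 fold change 1.11, adjusted p = 7.28e-15, in the authors' deposited table). Cabin1, a partner of the H3.3 chaperone HIRA, fell from 48685, 39099 and 62544 to 29446, 21858 and 22874 (-1.02, adjusted p = 5.28e-06, in the authors' deposited table). At MII the Daxx groups overlapped, at 788, 870 and 2393 in WT and 1637, 962 and 1598 in CKO.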

How the data were processed

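Transcript levels were measured in 12 libraries of oocyte RNA prepared by standard Illumina protocols, per the labels, and the authors deposited 1 table per stage. No aligner, counter, genome build, annotation or use of strand is given in the sources used here. Per the file headers, each library's values are log10 values, and 10 to the power of the value minus 1 gave normalized counts. The deposited mean signal per gene over the libraries, log2 fold change with its standard error, test score and p-values are the authors' own.

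Whole reads were recovered from the smallest step between the values in each library (100% of the quotients lay within 0.05 of an integer), which gave the depths. No raw counts are in these files, so the test was limma 3.58.1 in R 4.3.3 on log2(normalized count + 1), CKO against WT at MII, for genes with a mean of at least 1 over the libraries fitted, with Benjamini-Hochberg adjustment over all genes tested. Fold changes on this scale understate the change of low genes. In 3 sets of simulated MII data the script recovered 75% of genes changed 4-fold and 99.3% of those changed 8-fold. The changed genes were drawn from abundant genes only, with a single fixed dispersion and no library standing apart. These rates thus do not cover most members, whose mean levels at MII had a median of 12.3 normalized counts. The GV table holds selected genes, so no test was run on it. The labels call the replicates biological; p-values measure only the spread between these pools.

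The members and lists were chosen with earlier results of these data known. Named with values were all members in the GV table, those called at MII by limma or by the authors, the 3 most abundant of each class and H1f8, and list genes called at either stage. Alternatives were a pseudocount of 0.1, no filter, library size alone, limma-voom on recovered reads, thinning, array weights, a block on the replicate number and omission of each library; WT replicate 3 left out with the genes of the 6-library fit was chosen after seeing the data. The replicate numbers shared at MII (2 and 3) are tied to no animal or day by the labels, so the fit without a block was kept.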

Additional observations from a re-analysis of the deposited data

How the results depend on the processing

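For the 22 named members at MII, 292 of 330 alternative values kept both direction and side of the threshold, 7 lost a call, 14 gained one and 17 reversed; all 7 lost calls were those of H2aj. The number of genes called at MII was 308, against 148 with limma-voom, 3190 with array weights, 1851 in the authors' deposited table, 890 with WT replicate 3 left out on the genes of the 6-library fit, and 0 to 988 when 1 library was left out. The members called numbered 1, against 0 with limma-voom, 10 with array weights (7 lower, 3 higher), 6 in the authors' deposited table, 2 in the alternative added after seeing the data and 0 to 1 when 1 library was left out; for the processing and chaperone lists together the number was 3, against 0, 13, 7 (authors) and 0 to 8 when 1 library was left out. With a replicate block on the shared numbers, 0 genes, 0 members and 0 list genes were called in limma, where 528 genes higher and 968 lower, 7 members among them, had an unadjusted p under 0.05; same-numbered libraries did not deviate together (r = 0.01 and -0.10), and at GV, where the genotypes share the numbers 1, 2 and 4, no test of the selected genes and hence no fit with a block was run. The reversed log2 differences were, for H1f3, 0.0053 with array weights; for H1f4, -0.19 with array weights, -0.87 with the replicate block, -0.67 without WT replicate 1 and -0.13 in the authors' deposited table; for H2az1, 0.48 with array weights, 0.30 without WT replicate 3 (also in the added alternative) and 0.01 without CKO replicate 3; for H3f3a, -0.50 with the block, -0.15 without WT replicate 1, -0.15 without WT replicate 2 and -0.28 without CKO replicate 4; for H3f3b, 0.070 with array weights and 0.22 without WT replicate 3 (also in the added alternative); and for Macroh2a1, -0.028 with the block. With 1 library left out the values ran from -0.67 to 0.99 for H1f4, from -0.64 to 0.30 for H2az1, from -0.28 to 0.51 for H3f3a and from -0.54 to 0.22 for H3f3b. Class log2 ratios without WT replicate 3 were -0.71 for linker (from -1.60) and 0.29 for variant genes (from -0.31). The cause of these shifts was not tested. At GV, leaving out 1 library moved 1 of 90 log2 ratios, that of H1f3, beyond the spread of its libraries and reversed none; those of H1f2, H1f4, H2ac1 and H4c3 moved by over 1.5 times in ratio within that spread. The median log2 difference of all genes tested was -0.11, 0.01 with limma-voom and -0.17 without WT replicate 3; direction for single members is relative to it. Depth limits the members with few reads: the CKO libraries held fewer reads than the WT libraries, and 36 of the 62 members lacked a read in at least 1 library.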
